A study of Mus musculus with 6 samples.

Results

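The genes of the translation initiation factors (eIF) and elongation factors (eEF) were read in basal cells of the mouse esophageal epithelium. All rows of the deposited expression table whose symbol starts with Eif1 to Eif6 or with Eef1 or Eef2 were taken, leaving out the X- and Y-encoded genes of the eIF2 gamma subunit (Eif2s3x and Eif2s3y). This gave 61 genes of 24016. The rule reads symbols alone, but it was chosen with earlier results of these data known. The mice were Krt15-CrePR1;R26mTomato/mGFP: the Krt15 promoter drives a Cre that RU486 (mifepristone) activates, and Cre switches the reporter from membrane Tomato to GFP. Each group was sorted 24 h after 1 mg of RU486, from cells high in the basal integrin CD29, as GFP-positive (called Krt15-positive) or GFP-negative (called Krt15-negative). Both groups thus share the genotype and the drug, and GFP records past activity of the Krt15 promoter and not the Krt15 level at harvest. Each group held 3 libraries of RNA-derived cDNA, and the labels do not say whether these came from separate mice or give the age of the mice. Libraries with the same replicate number also share a prefix in their sample names, a different one for each number, whose meaning the labels do not give.

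Translation starts when eIF2 brings the initiator tRNA to the small ribosomal subunit, with eIF3, eIF1 and eIF1A bound, and eIF4F (the cap-binding protein eIF4E, the helicase eIF4A and the scaffold eIF4G) recruits the mRNA. eIF5 and eIF5B complete start-codon recognition and subunit joining, eEF1A then delivers aminoacyl-tRNA and eEF2 moves the ribosome along. Phosphorylation of eIF2 by its kinases and binding of eIF4E by the 4E-BP proteins are the main brakes on this process, and epithelial stem and progenitor cells are known to adjust protein synthesis as they differentiate.

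Values are FPKM, the authors' estimate of fragments scaled to transcript length and to the fragments mapped in a library, so levels of different genes can be set side by side. Differences are Krt15-positive minus Krt15-negative on the log2(FPKM + 1) scale, which understates changes of low genes, with the standard error (SE) of the limma fit over all genes. Depth, estimated from the size of the lowest values, was between 27.6 and 42 M (mega) fragments a library. Between 6906 and 9194 genes reached 1 FPKM in 5 of the libraries and 3247 in Krt15-negative replicate 1. The basal keratins Krt5, Krt14 and Krt15 stood at 369 FPKM or more in all 6 libraries. The other basal markers were mixed. Trp63 and Itgb1, which encodes CD29, stood at 10.8 FPKM or more in 5 libraries and at 0.459 and 1.03 FPKM in Krt15-negative replicate 1. In that library Itga6, Lamb3, Itga3 and Cdh3 stood at 1.46, 0.0681, 0 and 0 FPKM. Itgb4, Col17a1 and Dst stood at 17.2, 15.8 and 33.8 FPKM there. Cdh3 was at 7.805 FPKM or less in every library. Markers of differentiated, suprabasal cells were mixed. Krt4 stood at 606 to 6295 FPKM and Krt13 at 847 to 3771 FPKM over the 6 libraries, while Tgm3 stood at 1.54 to 20.6 FPKM and Ivl at 0.0177 FPKM or less. The 10 suprabasal markers summed to 8971 to 53412 FPKM and the 12 basal markers to 3906 to 14156 FPKM, with groups overlapping for both sums. Within the suprabasal sum, Krtdap alone gave 7254 to 41287 FPKM, except in Krt15-negative replicate 3, where it was listed at 0. The part of suprabasal RNA in the results was not tested. The 15 fibroblast markers summed to 718 to 1249 FPKM in Krt15-negative against 164 to 320 FPKM in Krt15-positive libraries, and 12 of the 13 tested had differences below 0. Of these markers Col1a2, Lum, Pdgfra, Postn and Col6a2 were listed at 0 in all 3 Krt15-positive libraries, and Mfap5 was at 0.0744 FPKM or less. In Krt15-negative libraries Pdgfra and Col6a2 were also at 0 in replicates 1 and 2, and Lum and Postn in replicate 2. Dcn stood at 13.9, 267 and 457 FPKM in Krt15-negative against 167, 176 and 71.1 FPKM in Krt15-positive libraries. Gsn stood at 210, 277 and 384 FPKM against 22.6, 141 and 92.3 FPKM. The 15 immune markers summed to 606 to 1060 FPKM against 146, 164 and 7317 FPKM, the last in Krt15-positive replicate 1, where Lyz2 alone gave 7279. In bulk libraries such as these, fewer cells of a type and less RNA per cell cannot be told apart.

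The start regions of 3 members, Eef1a1, Eif1 and Eef2, are shown because they hold the letters of the TATA-box core, TATAA. Each of these genes also leads its role group in level, but the leaders of the other role groups were not among the members found with TATAA. Sequences come from RefSeq (build GRCm38.p6), which held a start site for 47 of the 61 genes. Each runs from 30 bases before the annotated start and covers 60 bases, and capitals mark the letters TATAA. In Eef2 the letters lie before the annotated start, and in Eef1a1 and Eif1 after it, and that start need not be the one used in these cells.
Eef1a1, chr9:78481695-78481754, minus strand: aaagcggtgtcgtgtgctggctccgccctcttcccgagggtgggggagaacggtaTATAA
Eif1, chr11:100319919-100319978, plus strand: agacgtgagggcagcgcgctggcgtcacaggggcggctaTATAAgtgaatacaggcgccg
Eef2, chr10:81176601-81176660, plus strand: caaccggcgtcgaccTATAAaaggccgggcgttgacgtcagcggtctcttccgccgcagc
Eif4g1, chr16:20672697-20672756, plus strand: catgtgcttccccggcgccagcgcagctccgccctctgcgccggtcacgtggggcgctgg
The fourth, Eif4g1, is shown for contrast as the member with the smallest p in the comparison of the groups, and it holds no match. The strand printed here reads in the direction of the gene. Over 50 bases on either side of the start, TATAA was found on that strand in 3 of the 47 members (6.38%) and in 7.97% of the 27025 genes in the table. Its reverse complement TTATA, which marks TATAA on the other strand, was found in 0 of the 47 members and in 5.24% of all genes.

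**Figure D1:**
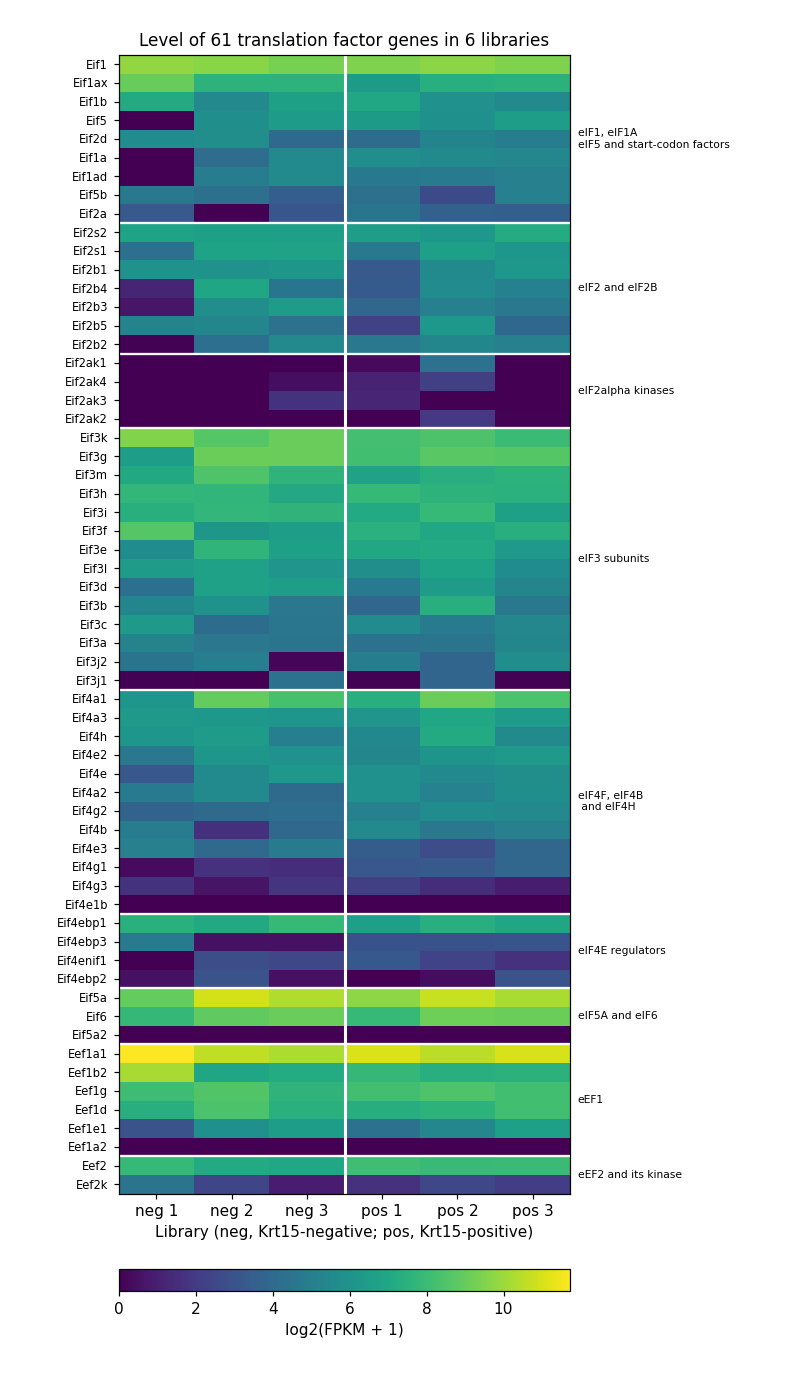
Level of the 61 translation factor genes (rows, grouped by role and sorted by mean level) in the 6 libraries (columns), as colour on the log2(FPKM + 1) scale. Eef1a1, Eif5a and Eif1 are bright in every library, the eIF2alpha kinases are dark in nearly all, and Eif5, Eif1a and Eif1ad are dark in Krt15-negative replicate 1 alone.

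Most factor genes were well expressed in both groups, and no member passed the test between them. Of the 61 genes, 55 had a mean of at least 1 FPKM and were tested. Left out were Eef1a2, Eif5a2 and Eif4e1b, paralogs known from muscle, neurons, germ cells or oocytes, and 3 of the 4 eIF2alpha kinase genes. Of the 55 tested members 45, 50 and 50 reached 1 FPKM in Krt15-negative against 52, 54 and 52 in Krt15-positive libraries. Among all 9423 genes tested the share at 1 FPKM was 33.8% in Krt15-negative replicate 1, where 81.8% of the members reached it, and 70.5% to 88% in the other libraries. The 61 genes together took between 0.926% and 1.36% of the FPKM total of a library, with the ranges of both groups overlapping. The median of the 55 members was 37.5, 62.2 and 69.2 FPKM in Krt15-negative against 47.4, 60.4 and 52.8 FPKM in Krt15-positive libraries.

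At a limma adjusted p below 0.05, 0 of the 55 members were called, and the share called among all 9423 genes was 0% as well. At an unadjusted p below 0.05 there were 0 members in either direction, where 3.18% of all genes were higher and 0.743% lower. The 2 groups of libraries did not overlap for 5 members that stood higher in Krt15-positive cells (9.09% of those tested, against 8.85% of all genes) and for 3 that stood lower (5.45%, against 2.44%). The first share is near that of genes in general, the second rests on 3 genes, and neither was tested against the background. Of the 5 higher members, Eif2ak1 reached the mean of 1 FPKM only through its Krt15-positive values, which favours a gap in that direction. The members' differences were above 0 for 31 and below 0 for 24, so 56.4% were above 0, against 68.6% of all genes. Their median was 0.15, beside 0.63 for all genes tested. Without Krt15-negative replicate 1 the members' median was -0.0070 and that of all genes 0.02, with 27 members above 0 (50.9% of all genes were) and 28 below (49% of all genes). The direction of the members' median also turned with scaling, at -0.31 with upper-quartile and 0.27 with median-of-ratios scaling, while that of all genes was 0.48 and 0.70.

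**Figure D2:**
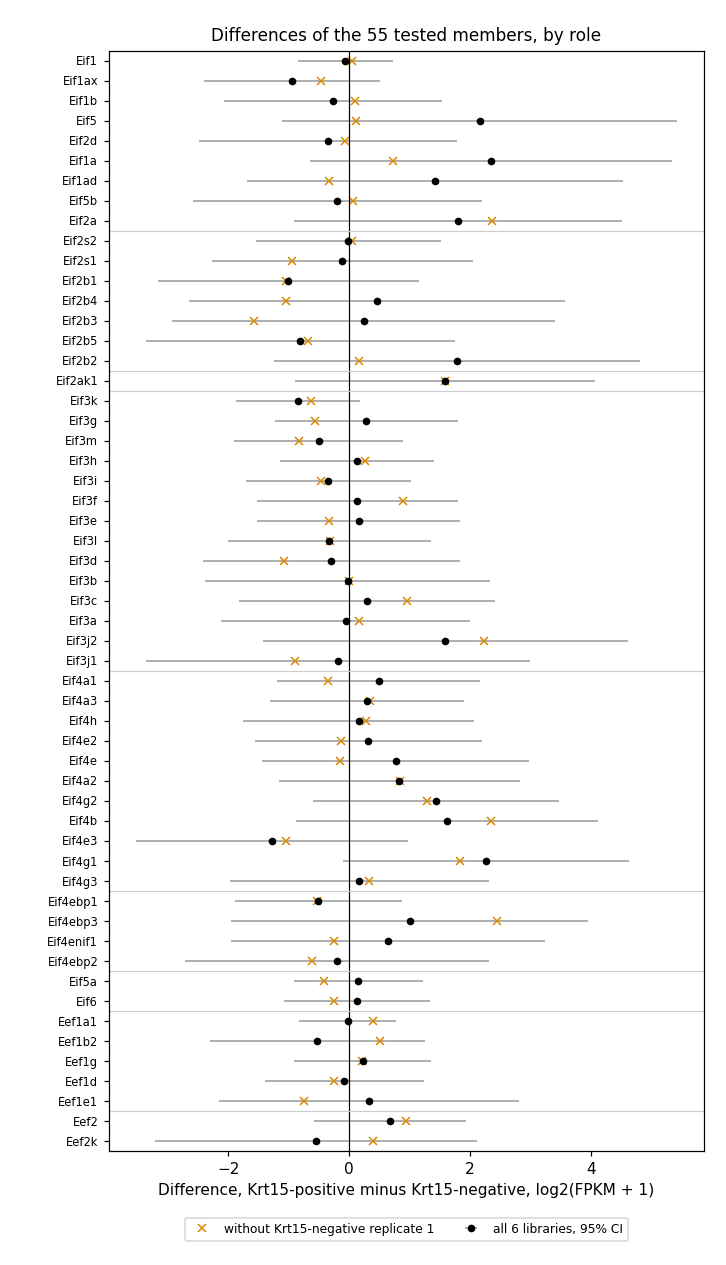
Difference of each of the 55 tested members, Krt15-positive minus Krt15-negative on the log2(FPKM + 1) scale, with its 95% confidence interval from limma (black points, grey bars) and the value without Krt15-negative replicate 1 (orange crosses). All 55 intervals span 0, Eif4g1 comes nearest to excluding it at -0.10 to 4.63, and the crosses of Eif5, Eif1a, Eif1ad and Eif2b2 lie nearer to 0 than their points.

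Of the start-codon factors, Eif1 was the most abundant and the most even. Eif1, which keeps the scanning ribosome open until the start codon is met, stood at 897, 812 and 642 FPKM in Krt15-negative against 703, 832 and 701 FPKM in Krt15-positive libraries (784 ± 130 and 745 ± 75.3, SD, n = 3). The groups overlapped, with a difference of -0.06 (SE 0.36, limma adjusted p = 0.97). Its paralog Eif1b stood at 143, 45 and 99.98 FPKM against 129, 60.4 and 47.1 FPKM. In both groups replicate 1 was the highest library for Eif1b, and Eif1 exceeded Eif1b by 5.46 to 18 times in the 6 libraries.

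eIF1A, the partner of eIF1 in scanning, is encoded by Eif1a and the X-linked Eif1ax, and the differences of these paralogs had opposite signs. Eif1ax stood at 507, 189 and 189.98 FPKM in Krt15-negative against 82, 169 and 184 FPKM. The groups did not overlap, although 4 of the 6 values lay between 169 and 189.98, and the difference was -0.94 (SE 0.67, limma adjusted p = 0.79). Without both replicate 1 libraries it was -0.10. Eif1a was listed at 0, 17.5 and 44.4 FPKM against 53.2, 46 and 42.7 FPKM, with a difference (SE 1.37, limma adjusted p = 0.79) of 2.35, which was 0.73 without Krt15-negative replicate 1. The sum of both genes was 507, 206 and 234 FPKM against 135, 215 and 226 FPKM, so the groups overlapped. The paralogs encode near-identical proteins, and the value of each alone is uncertain.

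Among the other factors of this step, Eif5, Eif1ad and Eif2a each had 1 Krt15-negative library at or near 0. Eif5, the GTPase-activating protein of eIF2, stood at 0.0179 FPKM in Krt15-negative replicate 1 and at 57, 87.4, 82.1, 58.5 and 93.1 FPKM in the other 5 libraries. Its difference of 2.16 (SE 1.49, limma adjusted p = 0.79) was 0.11 without that library. Eif1ad, an eIF1A-domain protein gene, likewise was listed at 0 there and stood at 25.7 to 46.7 FPKM elsewhere. Eif2a, which encodes an alternative initiator tRNA-binding protein and not the eIF2 alpha subunit, stood at 8.54, 0 and 7.71 FPKM against 22.9, 11.7 and 10.6 FPKM. The groups did not overlap, with a difference (SE 1.24, limma adjusted p = 0.79) of 1.80, which was 0.74 without Krt15-negative replicate 2, where the gene was listed at 0. Eif5b, for subunit joining, and Eif2d, for noncanonical initiation and recycling, stood between 5.2 and 53.8 FPKM with overlapping groups.

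The groups overlapped for all 7 genes of the eIF2 subunits and of its exchange factor eIF2B. Eif2s2, encoding the beta subunit, stood at 111, 99.4 and 98.2 FPKM against 95.1, 75.7 and 146 FPKM, a difference of -0.02 (SE 0.70, limma adjusted p = 0.99). Eif2s1, encoding the alpha subunit that the stress kinases phosphorylate, stood at 18.2, 112 and 107 FPKM against 25.2, 97 and 71.4 FPKM. For Eif2s1 the replicate 1 library was the lowest in each group, and the ranges of the groups overlapped.

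eIF2B, the 5-subunit complex that recharges eIF2 with GTP, was uneven in composition at the mRNA level. In Krt15-negative replicate 1 its subunit genes ran from 0.0459 FPKM for Eif2b2 to 61.7 FPKM for Eif2b1, with Eif2b3 at 0.63 and Eif2b4 at 1.35 FPKM. In the other 5 libraries the highest subunit exceeded the lowest by 2.25 to 6.62 times. Eif2b1 stood at 61.7, 62.5 and 72.5 FPKM against 8.62, 48.1 and 75.6 FPKM, with a difference (SE 0.98, limma adjusted p = 0.80) of -1.005, which was -0.11 without Krt15-positive replicate 1. Eif2b2 had the largest difference of the group, 1.78 (SE 1.38, limma adjusted p = 0.79), and 0.17 without Krt15-negative replicate 1. Of the 7 members for eIF2 and eIF2B, 3 had differences above 0 and 4 below, with a median of -0.02, and median-of-ratios scaling gave 5 above and 2 below.

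The eIF2alpha kinase genes, which couple heme shortage, viral RNA, misfolded protein and amino acid shortage to translation, were at or near 0 in most libraries. Eif2ak1 (HRI) was listed at 0 in all 3 Krt15-negative libraries and stood at 0.247, 20.3 and 0.0119 FPKM in Krt15-positive libraries. The groups did not overlap, yet 1 library carried the value, and the difference of 1.58 (SE 1.14, limma adjusted p = 0.79) was 0.17 without it. Its annotated exons overlap those of Aimp2 on the opposite strand, as those of Eif2a overlap Serp1, and the library chemistry does not mark strand. Eif2ak2 (PKR) reached 1 FPKM in Krt15-positive replicate 2 alone (2.91 FPKM). Eif2ak3 (PERK) stood at 2.33 FPKM in Krt15-negative replicate 3, at 1.4 FPKM in Krt15-positive replicate 1 and at 0 elsewhere. Eif2ak4 (GCN2) stood at 1.21 and 3.72 FPKM in Krt15-positive replicates 1 and 2 and at 0.351 FPKM or less in the other 4 libraries. Summed over the 4 kinases the level was 0, 0 and 2.68 FPKM against 2.85, 26.9 and 0.0571 FPKM, and the groups overlapped.

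eIF3, the large scaffold of the initiation complex, was expressed throughout, and 1 of its subunit genes separated the groups. Eif3k, a small subunit, stood at 729, 402 and 532 FPKM in Krt15-negative against 301, 347 and 253 FPKM in Krt15-positive libraries (554.5 ± 165 and 300.1 ± 47.2, SD, n = 3). All 3 Krt15-positive values lay below all Krt15-negative ones, with a difference of -0.85 (SE 0.47, 95% CI -1.88 to 0.18, limma adjusted p = 0.79). The difference lay between -1.33 and -0.46 in the 18 other settings and was -0.63 without Krt15-negative replicate 1. With groups that do not overlap, only scaling or quantile normalization could have turned its sign. Eif3l, the partner of Eif3k in the complex, stood at 85.7, 105 and 69.2 FPKM against 55.1, 109 and 52 FPKM, and these groups overlapped. Eif3m, of the octamer core, stood at 138, 362 and 199 FPKM against 109, 167 and 189 FPKM, a difference of -0.51 (SE 0.64, limma adjusted p = 0.83) with overlapping groups.

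The eIF3 subunit genes were not at equal levels. Without the 2 Eif3j genes, the 12 others spanned 16.1 to 39.2 times between the lowest and the highest in a library. The highest was Eif3k or Eif3g in all 6 libraries. Eif3g, an RNA-binding subunit, stood at 92.4, 549 and 532 FPKM against 289, 425 and 399 FPKM, so that the replicate 1 library was the lowest in both groups. Eif3f, of the octamer core, showed the opposite at 401, 74.2 and 94.3 FPKM against 179, 126 and 167 FPKM, with replicate 1 the highest in both. The large subunits Eif3a (20.1 to 40.2 FPKM), Eif3b (13.8 to 164 FPKM) and Eif3c (16.7 to 80.7 FPKM) stood at the low end in most libraries. The median over all 14 eIF3 genes was 83.2, 105 and 92.8 FPKM in Krt15-negative against 82.1, 135 and 65.4 FPKM in Krt15-positive libraries. Differences were above 0 for 6 and below 0 for 8 of the 14 genes, with a median of -0.04, or -0.33 without Krt15-negative replicate 1. Upper-quartile scaling gave 1 above and 13 below, and median-of-ratios scaling 8 above and 6 below.

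Eif3j1 and Eif3j2, near-identical copies for the loosely bound j subunit, varied widely between libraries. Eif3j2 was above Eif3j1 by a wide margin in 4 libraries, level with it in Krt15-positive replicate 2 and below it in Krt15-negative replicate 3. Eif3j1 stood at 20.1 FPKM in Krt15-negative replicate 3 and 13.1 FPKM in Krt15-positive replicate 2, and at 0.0488 FPKM or less in the other 4 libraries. Eif3j2 stood at 21.8, 31.9 and 0.14 FPKM against 29.9, 13.2 and 52.8 FPKM, with a difference (SE 1.38, limma adjusted p = 0.79) of 1.59, which was 0.06 without Krt15-negative replicate 3. The sum of both copies was 21.9, 32 and 20.2 FPKM against 29.9, 26.3 and 52.8 FPKM, with overlapping groups. Values of each copy alone are uncertain because the authors' estimate can split reads between them.

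**Figure D3:**
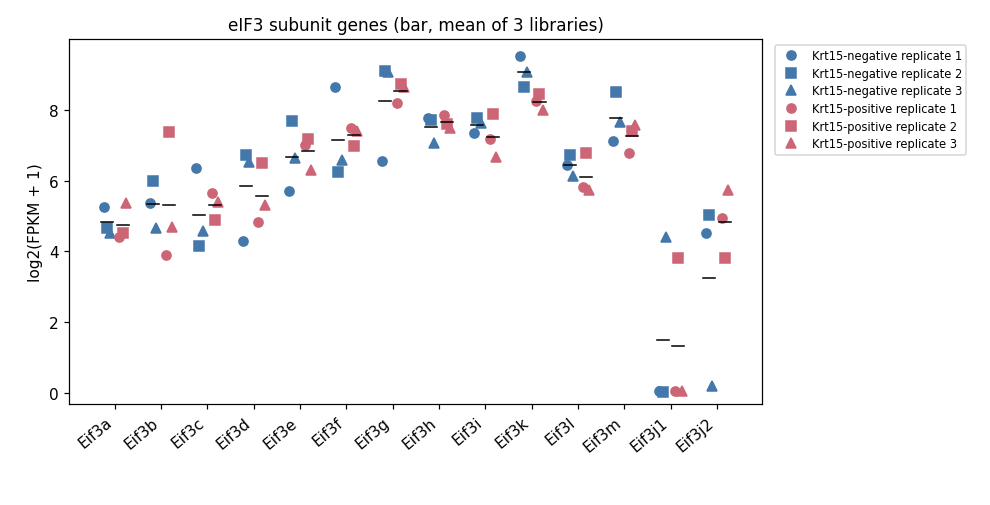
Level of the 14 eIF3 subunit genes in each library on the log2(FPKM + 1) scale (points, colour for group and shape for replicate; bar, mean of 3 libraries). Only for Eif3k do the 3 Krt15-positive points all lie below the Krt15-negative ones, and Eif3j1 is near 0 in 4 libraries and Eif3j2 in 1.

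Within the cap-binding complex, the scaffold genes Eif4g1 and Eif4g2 stood higher in all 3 Krt15-positive libraries, short of the test's threshold. Eif4g1, which joins the cap-binding protein to the helicase and to eIF3, stood at 0.264, 2.14 and 1.94 FPKM in Krt15-negative against 8.19, 8.58 and 13.7 FPKM in Krt15-positive libraries (1.45 ± 1.03 and 10.2 ± 3.07, SD, n = 3). The lowest Krt15-positive value thus exceeded the highest Krt15-negative one, and the difference was 2.26 (SE 1.08, 95% CI -0.10 to 4.63, limma adjusted p = 0.79). Eif4g2 (DAP5), a related scaffold that lacks the eIF4E-binding part and serves cap-independent initiation, stood at 12.2, 15.8 and 18.1 FPKM against 33.4, 51.7 and 45.5 FPKM (15.4 ± 2.98 and 43.5 ± 9.31, SD, n = 3). These groups did not overlap either, with a difference of 1.44 (SE 0.93, 95% CI -0.60 to 3.48, limma adjusted p = 0.79). Eif4g3, the third scaffold gene, was low at 2.26, 0.536 and 2.51 FPKM against 3.68, 1.86 and 0.862 FPKM, and its groups overlapped.

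The sum of the 3 scaffold genes was 14.7, 18.5 and 22.6 FPKM in Krt15-negative against 45.3, 62.1 and 60.1 FPKM in Krt15-positive libraries. It is made up mostly of Eif4g1 and Eif4g2, so it adds no separate result, and it was not tested. Over the 18 other settings the differences of Eif4g1 and Eif4g2 ran from 0.82 (quantile normalization) to 3.07 (pseudocount of 0.1) and from 0.97 to 1.81. Because their groups did not overlap, only scaling or quantile normalization could have turned the sign. The values without Krt15-negative replicate 1 were 1.84 and 1.29, and the smallest limma adjusted p in any setting was 0.54 and 0.60. The fibroblast marker sum given above also separated the groups, in the opposite direction, and its part in these differences, as in those of Eif3k, Eif4e3, Eif1ax, Eif2a and Eef2, was not tested.

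The other cap-complex genes overlapped between the groups, with 1 exception. The main helicase gene Eif4a1 stood at 70.4, 504 and 315 FPKM against 170.2, 543 and 335 FPKM, with a difference (SE 0.77, limma adjusted p = 0.87) of 0.49, which turned to -0.34 without Krt15-negative replicate 1. Its paralog Eif4a2 stood at 27.9, 46.6 and 15.4 FPKM against 59.9, 35.5 and 56.2 FPKM. Eif4a1 exceeded Eif4a2 by 2.52 to 20.5 times, least in the replicate 1 library of each group. Eif4a3, the helicase of the exon junction complex, was more even at 67.8 to 126 FPKM. Eif4e, the cap-binding protein itself, stood at 8, 46.4 and 76.1 FPKM against 59.7, 47.8 and 53.9 FPKM, and Eif4e2 (4EHP), which binds the cap without recruiting eIF4G, stood at 25.2 to 79.3 FPKM. In 5 of the 6 libraries Eif4e lay between 46.4 and 76.1 FPKM.

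Eif4e3, an atypical cap-binding paralog, was the exception. It stood at 33.4, 15 and 27.5 FPKM in Krt15-negative against 9.87, 5.84 and 13.8 FPKM in Krt15-positive libraries (25.3 ± 9.40 and 9.84 ± 3.98, SD, n = 3). All Krt15-positive values were below all Krt15-negative ones, with a difference of -1.28 (SE 1.03, 95% CI -3.53 to 0.97, limma adjusted p = 0.79), between -1.71 and -0.91 in the 18 other settings. Relative to Eif4e, Eif4e3 stood at 4.18, 0.323 and 0.361 times against 0.166, 0.122 and 0.256 times. The 4.18 belongs to Krt15-negative replicate 1, where Eif4e was at its lowest, 8 FPKM. This ratio reuses the Eif4e3 values already given and was not tested.

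Eif4b, which stimulates the helicase, stood at 29.7, 1.99 and 14.6 FPKM against 47.4, 23.9 and 33.8 FPKM, with a difference (SE 1.14, limma adjusted p = 0.79) of 1.63, which was 0.67 without Krt15-negative replicate 2. Eif4h, with a like role, stood at 32.4 to 142 FPKM with overlapping groups. Of the 11 tested genes for eIF4F, eIF4B and eIF4H, 10 had a difference above 0, with a median of 0.49. Over all genes tested, 68.6% were above 0 and the median was 0.63, so this group's median was not above that of genes in general. The count of 10 became 7 without Krt15-negative replicate 1, 7 with library weights and 6 with upper-quartile scaling, and stayed at 10 with median-of-ratios scaling.

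The 4E-BP proteins hold eIF4E away from eIF4G until mTORC1 phosphorylates them, and Eif4ebp1 was their main gene here. Eif4ebp1 stood at 174, 140.1 and 232 FPKM against 96.1, 165 and 122.9 FPKM, a difference of -0.51 (SE 0.63, limma adjusted p = 0.83) with overlapping groups. Its level was 1.61 to 3.46 times that of Eif4e in 5 libraries and 21.8 times in Krt15-negative replicate 1, where Eif4e was at its lowest. Eif4ebp2 was at 6.94 FPKM in Krt15-negative replicate 2 and 7.18 FPKM in Krt15-positive replicate 3, and at 0.44 FPKM or less elsewhere. Eif4ebp3 stood at 27.7, 0.45 and 0.45 FPKM against 6.71, 6.68 and 7.23 FPKM. The Krt15-positive values of Eif4ebp3 were close to each other while the Krt15-negative ones lay on both sides, and the difference of 1.00 (SE 1.35, limma adjusted p = 0.85) was 2.44 without Krt15-negative replicate 1. Eif4enif1 (4E-T), which carries eIF4E into the nucleus and to processing bodies, had a listed 0 in Krt15-negative replicate 1 and 2.22 to 8.42 FPKM elsewhere.

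**Figure D4:**
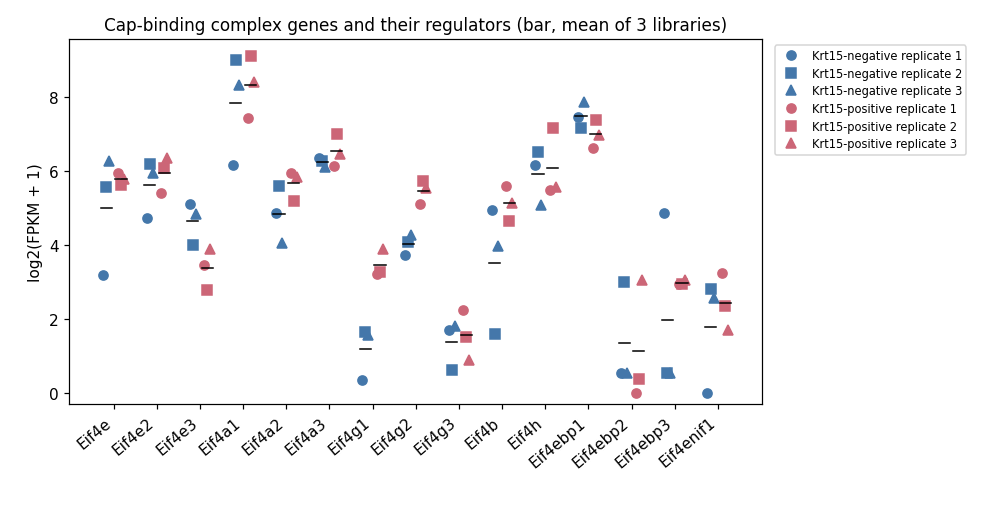
Level of the cap-binding complex genes and their regulators in each library on the log2(FPKM + 1) scale (points, colour for group and shape for replicate; bar, mean of 3 libraries). The Krt15-positive points lie above all Krt15-negative ones for Eif4g1 and Eif4g2 and below them for Eif4e3, and the groups overlap for the other 12 genes.

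Eif5a and Eif6 were abundant, and their groups overlapped. Eif5a, whose hypusine-bearing protein relieves ribosome stalling, stood at 495, 1991 and 1293 FPKM against 846, 1728 and 1196 FPKM (difference 0.15, SE 0.49, 95% CI -0.92 to 1.23, limma adjusted p = 0.94). Eif6, which keeps the large ribosomal subunit from joining too early, stood at 224, 464 and 530.2 FPKM against 231, 566 and 551 FPKM (difference 0.13, SE 0.56, 95% CI -1.09 to 1.34, limma adjusted p = 0.96). For both genes the replicate 1 libraries of the 2 groups were the lowest, and both differences turned below 0 without Krt15-negative replicate 1. Eif5a2 was listed at 0 in all 6 libraries.

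Among the elongation factors, eEF2 stood higher in all 3 Krt15-positive libraries and eEF1A did not separate the groups. Eef2, the translocase, stood at 234, 143 and 127 FPKM against 280.3, 239.8 and 257 FPKM (168 ± 57.6 and 259 ± 20.3, SD, n = 3). The groups did not overlap, although Krt15-negative replicate 1 lay just under Krt15-positive replicate 2. The difference was 0.67 (SE 0.57, 95% CI -0.59 to 1.93, limma adjusted p = 0.79) and lay between 0.19 and 1.07 in the 18 other settings. Eef2k, the calcium-dependent kinase that inactivates eEF2, stood at 21.8, 4.52 and 0.947 FPKM against 2.19, 4.57 and 3.44 FPKM, with a difference (SE 1.22, limma adjusted p = 0.91) of -0.55, which turned to 0.39 without Krt15-negative replicate 1.

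Eef1a1 was the most abundant member in 3 of the 6 libraries, and Eif5a was in the other 3, Krt15-negative replicates 2 and 3 and Krt15-positive replicate 2. Eef1a1 stood at 3406, 1582 and 1253 FPKM against 2162, 1446 and 2059 FPKM, a difference of -0.02 (SE 0.37, 95% CI -0.83 to 0.78, limma adjusted p = 0.99). It made up 32.4%, 15.5% and 15.1% of the members' summed FPKM in Krt15-negative against 27.8%, 14.8% and 22.8% in Krt15-positive libraries. Its paralog Eef1a2 was listed at 0 in 5 libraries and at 0.0165 FPKM in the other. Relative to Eef2, Eef1a1 stood at 14.6, 11.1 and 9.87 times in Krt15-negative against 7.71, 6.03 and 7.997 times in Krt15-positive libraries, so this ratio did not overlap between the groups. The ratio was chosen after its values were seen and was not tested.

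The exchange factor of eEF1A is built from the products of Eef1b2, Eef1d and Eef1g. Eef1b2 stood at 1177, 122.7 and 148 FPKM against 223, 171 and 186 FPKM, so that 1 Krt15-negative library was far above the other 5. Its difference of -0.53 (SE 0.81, limma adjusted p = 0.87) turned to 0.51 without that library. Eef1g was steadier at 268, 375 and 196 FPKM against 293, 367 and 290.1 FPKM, and Eef1d stood at 169, 344 and 173 FPKM against 158, 188 and 286 FPKM. In the 5 libraries other than Krt15-negative replicate 1, the highest of the 3 genes exceeded the lowest by 1.33 to 3.05 times, against 6.97 times in that one. Eef1e1 (AIMP3), a scaffold protein of the aminoacyl-tRNA synthetase complex named for its likeness to eEF1, stood at 7, 58.8 and 95.3 FPKM against 20.3, 42.3 and 98.1 FPKM, with a difference of 0.33 (SE 1.14, limma adjusted p = 0.95).

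**Figure D5:**
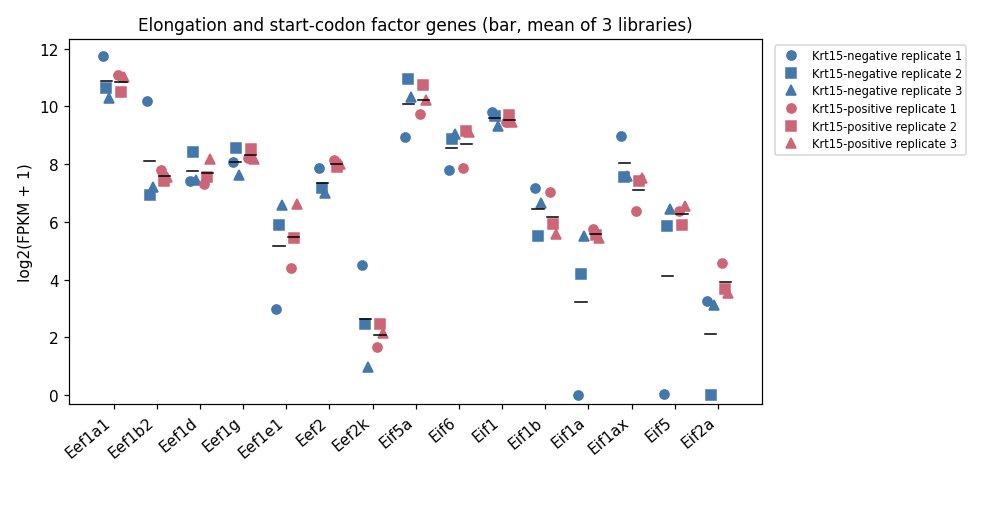
Level of the elongation factor genes, Eif5a, Eif6 and 6 of the start-codon factors in each library on the log2(FPKM + 1) scale (points, colour for group and shape for replicate; bar, mean of 3 libraries). Krt15-negative replicate 1 (blue circles) lies at 1177 FPKM for Eef1b2 and at or near 0 for Eif1a and Eif5, and the Krt15-positive points of Eef2 all lie above the Krt15-negative ones.

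Genes that act on or beside these factors were read from 6 lists, and none of their members passed the limma test over all genes. Of 9 genes for hypusine and diphthamide, the modifications of eIF5A and eEF2, 6 had differences above 0 and 3 below, with a median of 0.89 that was -0.13 without Krt15-negative replicate 1. The highest of these was Dohh, deoxyhypusine hydroxylase, listed at 0 in that library and at 26.4 to 64.1 FPKM elsewhere. Dph7, of diphthamide synthesis, had the smallest p (difference 2.26, SE 1.09, limma adjusted p = 0.79). Of 11 tested genes for termination, recycling and ribosome rescue, 5 were above 0 and 6 below (median -0.07, and -0.55 without Krt15-negative replicate 1). Mcts1, a recycling factor, was the highest and stood at 142, 119 and 171 FPKM against 85.6, 105 and 48.1 FPKM, lower without overlap (difference -0.90, SE 0.71, limma adjusted p = 0.79). Among them Ltn1, a ubiquitin ligase for stalled nascent chains, had the smallest p and stood at 0.0522, 0 and 0.0063 FPKM against 3.28, 3.37 and 2.82 FPKM (difference 2.03, SE 0.83, limma adjusted p = 0.79).

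Of 11 tested poly(A)-binding and cap-complex partners, 6 were above 0 and 5 below (median 0.21, and -0.32 without Krt15-negative replicate 1). Paip2, which restrains the poly(A)-binding protein, was the highest at 196 to 372 FPKM. Larp4, a poly(A)-associated RNA-binding protein gene, had the smallest p at 0.0052, 0.0337 and 2.54 FPKM against 4.67, 10.6 and 12.7 FPKM (difference 2.65, SE 1.09, limma adjusted p = 0.79). Of 8 tested genes for mTORC1 and MNK control, 5 were above 0 and 3 below (median 0.63, and 0.10 without Krt15-negative replicate 1). Tsc2, which encodes a brake on mTORC1, stood at 0.011, 0 and 0.441 FPKM against 2.3, 4.75 and 5.13 FPKM (difference 2.11, SE 0.90, limma adjusted p = 0.79), and Rheb, the GTPase it acts on, at 68.3 to 201 FPKM with overlapping groups. Over the 57 genes tested in the 6 lists, the groups did not overlap for 5 that stood higher in Krt15-positive libraries, Dph7, Larp1, Larp4, Ltn1 and Tsc2 (8.77%, against 8.85% of all genes). They did not overlap for 3 that stood lower, Dph3, Mcts1 and Ncbp1 (5.26%, against 2.44% of all genes). Larp4, Ltn1 and Tsc2 reached the mean of 1 FPKM only through their Krt15-positive values, which favours a gap in that direction.

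The integrated stress response list holds genes induced after phosphorylation of eIF2 and the phosphatase subunits that reverse it. Of its 9 tested genes 7 were above 0 and 2 below, with a median of 0.38 that was -0.07 without Krt15-negative replicate 1. Atf3, a stress-induced transcription factor and the highest of the list, stood at 193, 960.0 and 528 FPKM against 778, 984 and 813 FPKM (difference 0.89, SE 0.55, limma adjusted p = 0.79). Atf4, whose translation rises when eIF2 is phosphorylated, stood at 135, 52.4 and 41.2 FPKM against 102, 48.6 and 105 FPKM. Of the 9 mitochondrial translation factor genes 7 were above 0 and 2 below (median 0.32, and -0.44 without Krt15-negative replicate 1), and together they summed to 8.05 FPKM in that library and to 94.3 to 216 FPKM in the other 5. Tsfm, the mitochondrial elongation factor Ts, was the highest at 4.58 to 125 FPKM, and Mtrf1l, a release factor, had the smallest p (difference 1.40, SE 1.37, limma adjusted p = 0.80).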

How the data were processed

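RNA of 6 libraries was profiled, with cDNA prepared straight from the cells, per the labels' protocols, by SMART-Seq v4 chemistry, which does not mark strand. The authors deposited 1 table of FPKM values. Its name says counts, but the values are not whole. The tools Cufflinks 2.2.1, STAR 2.5 and DESeq2 and the build mm9 are listed, per the submitters' processing notes, without role or order, and the annotation is not given in the sources used here. Of 24043 rows, 27 whose symbols had become dates were left out. Replicates are numbered as in the labels. The labels name no separate animals or cultures. Sample names carry a prefix that differs between replicate numbers and is shared by the groups. Whether it marks an animal is not given, so p-values reflect variation among libraries, which may be technical only, and any pairing by animal is unknown.

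Genes whose 6 values averaged 1 FPKM or above were tested as log2(FPKM + 1) with limma 3.58.1 (R 4.3.3) with a variance trend, group as the only term and Benjamini-Hochberg adjustment over 9423 genes, called below 0.05. The fit was tried on simulated data, with a pass limit set only for a spread smaller than the real one. It thus does not show how many changes the fit would find at the spread of these data. An exact 0 can be a failed estimate, so genes with a 0 are given per library. Depth was estimated from 6640 single-transcript genes from the pile of values that 1 fragment gives in FPKM times length, and is approximate, and lengths and exon overlaps came from GENCODE M21, a later build, so no coordinates were taken from it. Upper-quartile scaling used the 75th percentile of tested genes, and median-of-ratios scaling the 2390 genes that no library had under 1 FPKM. Other alternatives were pseudocounts of 0.1 and 5, no filter and a mean of 5 FPKM, quantile normalization, library weights, a replicate block, and leaving out libraries.

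Named members are those with the highest level and the extreme differences in each role, the 6 of smallest p on each side, paralogs and the eIF2alpha kinases. The members and lists were chosen with earlier results of these data known.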

Additional observations from a re-analysis of the deposited data

How the results depend on the processing

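Under the 18 other settings, 0 members were called, with a smallest limma adjusted p of 0.385 (Eif3j2 with library weights). Of the 26 members followed singly 17 kept the sign of their difference and 9 did not. For members whose groups did not overlap, only scaling or quantile normalization could have turned the sign. Over all genes, 8 were called with library weights and 0 in every other setting. The members' median was -0.31 with upper-quartile scaling. In the 2 scalings chosen after seeing the data it was -0.32 (median-of-ratios over genes above 0 in every library) and 0.53 (upper-quartile over values above 0). Leaving out 1 library at a time it ran from -0.0070 (without Krt15-negative replicate 1) to 0.36 (without Krt15-positive replicate 1). Upper-quartile scaling turned Eef1e1 to -0.094, Eif5a to -0.31 and Eif6 to -0.33, and the added median-of-ratios scaling turned them to -0.11, -0.33 and -0.35. Median-of-ratios scaling turned Eef1a1 to 0.12, Eif1 to 0.075 and Eif2s2 to 0.12, and upper-quartile scaling over values above 0, also added, to 0.37, 0.33 and 0.38. Quantile normalization gave Eef1a1 0.46, Eef1e1 -0.13, Eif1 0.30 and Eif2s2 0.073. Library weights gave Eef1a1 0.43, Eef1b2 0.27, Eef1e1 -0.95, Eef2k 0.68, Eif1 0.13, Eif4a1 -0.044, Eif5a -0.15 and Eif6 -0.33. Without both replicate 1 libraries the values were 0.29 for Eef1a1, 0.40 for Eef1b2, -0.21 for Eef1e1, 0.60 for Eef2k, 0.080 for Eif1, 0.090 for Eif2s2 and -0.16 for Eif5a. Leaving out 1 library at a time, Eef1a1 ran from -0.32 to 0.40, Eef1b2 from -1.11 to 0.51, Eef1e1 from -0.75 to 1.04, Eef2k from -1.39 to 0.39, Eif1 from -0.20 to 0.041, Eif2s2 from -0.27 to 0.20, Eif4a1 from -0.34 to 1.07, Eif5a from -0.41 to 0.59 and Eif6 from -0.25 to 0.55. The cause of these turns was not tested. With a replicate block, 0 genes (smallest limma adjusted p 0.21) and 0 members were called and the members' median was 0.15. Same-numbered libraries share a number and a name prefix of unstated meaning, and were not taken as pairs in the main fit. Their deviations correlated at 0.128, 0.168 and 0.00886 over 9423 genes, and not every library correlated best with its own number. With 3 libraries in each group, these correlations cannot show whether the libraries were paired.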

Other observations

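Several members were ordered by replicate number more than by group, a pattern noticed after the values were seen. The replicate 1 libraries of both groups were the lowest pair of the 6 for 13 of the 55 tested members (23.6%), against 14.9% of all genes tested. Among these were the helicase gene Eif4a1, Eif5a, Eif6, the eIF2 alpha subunit gene Eif2s1 and the eIF3 subunit genes Eif3d, Eif3g and Eif3m. They were the highest pair for 6 members (10.9%, against 2.93% of all genes), namely Eef1a1, Eef1b2, Eif1b, Eif3c, Eif3f and Eif3h. In Krt15-negative replicate 1, 33.8% of all genes tested reached 1 FPKM, against 81.8% of the members. Genes not detected there cannot be highest in that library, and the part of this in the contrast was not tested. The replicate 2 libraries were the highest pair for 10 members (18.2%, against 18.4%). Levels of the 55 members on the log2 scale correlated at 0.635 to 0.753 between Krt15-negative replicate 1 and the others, and at 0.813 to 0.923 among the other 5 libraries, a description across genes.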
